A study of Mus musculus with 6 samples.

Results

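The Hox genes encode homeodomain transcription factors that lie in 4 clusters, Hoxa to Hoxd, and carry paralog numbers from 1 at the 3′ end of a cluster to 13 at its 5′ end. All symbols made of Hox, a cluster letter and a number were taken from the count tables, which gave 38 genes among 38926 symbols: 11 of the Hoxa, 10 of the Hoxb, 9 of the Hoxc and 8 of the Hoxd cluster. Hoxd4, a gene of the Hoxd cluster in the annotation, is not analysed here. This choice by symbol used no measured value, though earlier results of these data were known. RNA came from dorsal root ganglia of lumbar levels L3, L4 and L5, which hold the cell bodies of sensory neurons with their satellite glia, Schwann cells, vessels and connective tissue. The 3 vincristine samples came from wild type female C57BL/6 mice aged 8 to 10 weeks that had received a cumulative 40 µg of vincristine by the intraplantar route, that is, into the paw. The 3 vehicle samples came from wild type females of the same strain and age given vehicle. Ganglia on the treated side were taken, and each sample pooled 4 animals and is given in the labels as a biological replicate, so the spread between samples is one between pools. Vincristine is a chemotherapy drug that binds tubulin and is known to cause peripheral neuropathy.

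In the embryo, Hox genes are switched on in the order of their place in the cluster, so that higher paralog numbers mark more caudal levels of the body, and the resulting set of active genes gives cells of each level a positional identity. Polycomb complexes keep the other Hox genes silent, and a part of the embryonic pattern is kept in adult cells. Genes of paralog numbers 10 and 11 are known for their roles at lumbar and sacral levels of the spine and in the limb, and those of number 13 at the end of the trunk and limb. Hox proteins bind DNA together with cofactors of the Pbx, Meis and Pknox families.

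Reads in genes ranged from 12374331 to 26346304 in the vincristine libraries and from 17967934 to 19917055 in the vehicle libraries, and the Hox genes took 3810 to 6854 of these reads in vincristine and 5192 to 6349 in vehicle. Vincristine replicate 1 stood apart from the other 5 libraries on the first principal component (56.4% of the variance). Its sample quality weight was 0.194, against 0.849 to 2.66 for the others. Levels are given as CPM, the reads of a gene scaled to the reads in genes of its library with TMM factors. Markers of sensory neurons were present in every library: the 12 listed genes summed to 3280, 7100 and 8600 CPM in vincristine replicates 1, 2 and 3, and to 6930, 8760 and 8300 CPM in vehicle replicates 1, 2 and 3. The lowest of these sums was that of vincristine replicate 1. The most abundant of them in vehicle were Uchl1, a neuronal ubiquitin hydrolase, and Tubb3, a neuronal tubulin. Of 10 spinal cord markers, the most abundant in vehicle were Mobp and Aqp4, with means of 53.7 and 20.5 CPM. Only the motor neuron gene Mnx1 had no read in any library. The 10 genes summed to 346, 108 and 89.6 CPM in the vincristine replicates and 102, 66.4 and 142 CPM in the vehicle replicates. The median log2 fold change was -0.45 for the neuron list and 0.81 for the spinal cord list, with 0 genes of either called by edgeR. It was 0.08 for satellite glia, -0.02 for Schwann cells, -0.10 for connective tissue, 0.08 for endothelium, -0.11 for bone and cartilage and 1.07 for skeletal muscle, with 0 called by edgeR. Blood cell lists stood apart: B cell genes had a median of -3.59, with 9 of 10 called lower by edgeR. Neutrophil genes had a median of 1.97 and red cell genes of 1.51, with 0 called by edgeR and 8 and 7 called higher by DESeq2. The part of these cells in the Hox values was not tested.

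Promoter sequence is shown for genes of the Hoxd cluster, where read counts fell across neighbouring genes. Hoxd8 and Hoxd9 were well read, Hoxd10 less so, Hoxd11 had 15 to 71 reads a library, and Hoxd12 had none. Hoxd11 has 2 annotated starts, whose windows hold 2 and 20 CG dinucleotides, and is left out of the lines. The lines below give the 250 bases before the start of each gene (RefSeq, GRCm38.p6, plus strand, chromosome 2), with the dinucleotide CG in capitals.
Hoxd8: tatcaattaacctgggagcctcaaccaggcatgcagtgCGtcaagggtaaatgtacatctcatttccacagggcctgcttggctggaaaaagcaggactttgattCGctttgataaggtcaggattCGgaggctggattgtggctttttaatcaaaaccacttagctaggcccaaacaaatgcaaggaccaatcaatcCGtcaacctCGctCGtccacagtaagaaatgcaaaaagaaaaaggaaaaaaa
Hoxd9: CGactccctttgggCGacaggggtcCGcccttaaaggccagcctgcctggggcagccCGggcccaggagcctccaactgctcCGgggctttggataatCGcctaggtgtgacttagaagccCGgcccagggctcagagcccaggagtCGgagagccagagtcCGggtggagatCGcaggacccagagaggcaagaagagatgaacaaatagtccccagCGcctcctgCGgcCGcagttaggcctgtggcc
Hoxd10: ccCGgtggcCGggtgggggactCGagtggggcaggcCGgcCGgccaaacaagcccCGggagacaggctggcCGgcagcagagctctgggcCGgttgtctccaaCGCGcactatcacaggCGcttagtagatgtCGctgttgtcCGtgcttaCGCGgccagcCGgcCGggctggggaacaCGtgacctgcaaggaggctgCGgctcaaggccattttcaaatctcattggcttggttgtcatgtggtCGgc
Hoxd12: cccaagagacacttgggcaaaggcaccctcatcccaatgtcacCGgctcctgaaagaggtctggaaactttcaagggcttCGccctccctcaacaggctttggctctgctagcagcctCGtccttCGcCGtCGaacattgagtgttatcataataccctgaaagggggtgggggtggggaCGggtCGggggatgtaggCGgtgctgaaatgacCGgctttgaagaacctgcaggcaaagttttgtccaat
These windows lie at chr2:74704365-74704614 for Hoxd8, chr2:74697513-74697762 for Hoxd9, chr2:74691641-74691890 for Hoxd10 and chr2:74674763-74675012 for Hoxd12. They hold 6, 13, 20 and 10 CG dinucleotides, so the well-read Hoxd8 had fewer than the unread Hoxd12. Windows were found for 21 of the 38 Hox genes, in all 23 windows since Hoxa10 and Hoxd11 have several starts. Of the Hoxb and Hoxc clusters only Hoxb1, Hoxb4, Hoxb8 and Hoxc4 had a window, so the values for Hox windows describe mostly Hoxa and Hoxd genes. The median Hox window held 13 CG dinucleotides, with a range of 2 to 35, against a median of 6 over 32851 windows of all genes. The letters TTTATG, which CDX factors are known to bind, were found on either strand in 4 of the 23 Hox windows (17.4%) and in 10.8% of all windows. A combined HOX and PBX site, spelled TGATTNAT, was found in 2 Hox windows (8.7%) and in 2.82% of all windows.

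The clusters also hold microRNA genes, of which those of the miR-10 and miR-196 families are shown because they share 2 seeds. The mature sequences (RefSeq, GRCm38.p6) are given with the seed, bases 2 to 8, in capitals.
miR-10a-5p: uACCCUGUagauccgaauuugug
miR-10b-5p: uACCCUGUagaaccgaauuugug
miR-196a-5p: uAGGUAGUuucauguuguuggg
miR-196b-5p: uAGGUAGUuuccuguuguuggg
Counted from the 5′ end, miR-10b-5p differs from miR-10a-5p by U12A and miR-196b-5p from miR-196a-5p by A12C, both outside the seed. Mir10a lies in the Hoxb cluster on chromosome 11, Mir10b in the Hoxd cluster on chromosome 2, Mir196a-1 on chromosome 11, Mir196a-2 on chromosome 15 and Mir196b on chromosome 6. Libraries of total RNA hardly capture mature microRNAs, so the counts concern precursors at most: Mir10a and Mir196b had no read in any library, Mir10b at most 4, Mir196a-2 at most 3 and Mir196a-1 between 4 and 9. In the annotation Mir196b overlaps an exon of Hoxa9 on the same strand, and reads shared in this way are as a rule not counted. The missing reads of Mir196b are therefore no measure of its level. Mir615, of another family, had 1 to 3 reads.

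In the vehicle ganglia the Hox genes were most active from paralog number 5 to 10, and the level dropped off at 11. Levels are compared between genes as CPM per kb of exon, that is, CPM divided by the exonic length in GENCODE M21. Hoxa7 (10.6 ± 0.519), Hoxa10 (9.96 ± 0.187) and Hoxd8 (9.56 ± 1.02 CPM per kb; SD, n = 3) were highest, and Hoxa9 followed at 6.89 ± 0.755 CPM per kb. The 3 highest and Hoxa9 were separated, since the vehicle libraries of Hoxd8 and Hoxa9 did not overlap. From Hoxa9 down to Hoxb3, at 1.54 ± 0.0441 CPM per kb, each gene's vehicle libraries overlapped those of the next gene, so their order among neighbours is not resolved. The vehicle libraries of Hoxb3 and the next gene, Hoxa4 (1.26 ± 0.0103 CPM per kb), did not overlap either. For scale, the median of 15786 tested genes with a known length was 5.21 CPM per kb in vehicle, and 8 of the 38 Hox genes lay above it. Hoxa7, the highest, stood above 70.2% of these genes.

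The summed Hox level was 114, 112 and 97.8 CPM per kb in vincristine replicates 1, 2 and 3, against 109, 110 and 119 CPM per kb in vehicle replicates 1, 2 and 3. The libraries of both groups overlapped, and vincristine replicate 3 was the lowest of the 6. Paralog numbers 5 to 9 held 65.3% ± 1.21 of this sum in vincristine and 67.0% ± 1.30 in vehicle (SD, n = 3 each). Numbers 1 to 4 held 16.9% ± 0.494 in vincristine and 17.4% ± 0.337 in vehicle, and numbers 10 to 13 held 17.8% ± 1.67 and 15.6% ± 1.13. Of the last class, paralog number 10 held 15.2% ± 0.722 in vincristine and 14.2% ± 0.859 in vehicle. Number 11 held 2.23% ± 0.786 in vincristine and 1.17% ± 0.450 in vehicle, number 12 0.197% ± 0.0645 and 0.112% ± 0.123, and number 13 0.147% ± 0.142 and 0.0446% ± 0.0190. In percentage points the step between numbers 10 and 11 was the largest between neighbouring numbers in both groups.

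**Figure D1:**
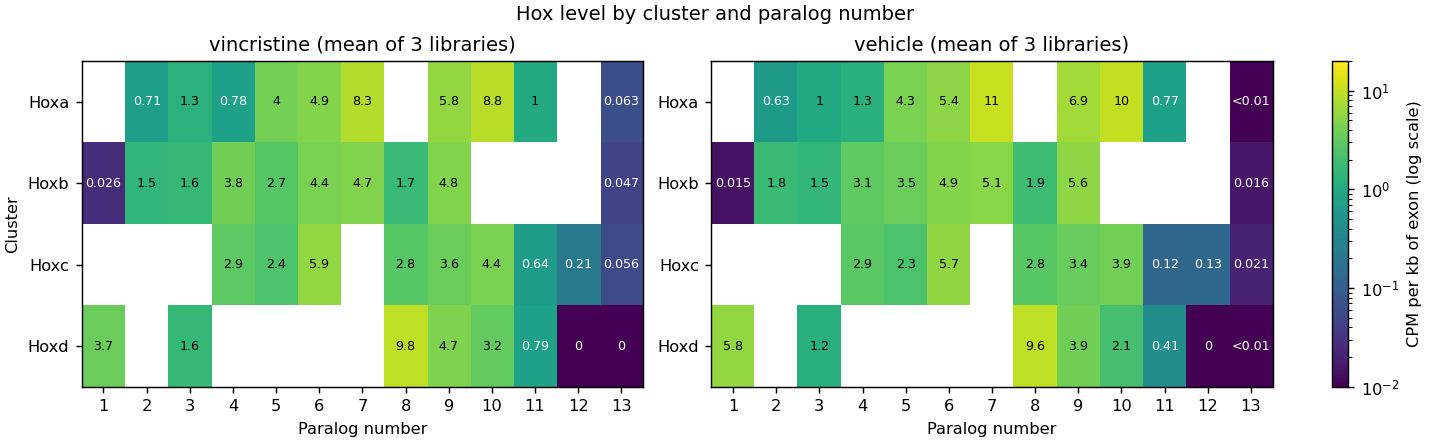
Mean level of each Hox gene in CPM per kb of exon, by cluster (rows) and paralog number (columns), in vincristine (left) and vehicle (right), each the mean of 3 libraries; colour is on a log scale with values under 0.01 drawn at 0.01, and white cells have no gene or none shown here. Every filled cell from number 5 to 10 is at or above that of Hoxb8 (1.73 in vincristine, 1.89 in vehicle), cells at 12 and 13 are dark, and Hoxd1 stands out at number 1.

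The clusters shared the total unequally. Hoxa held 33.6% ± 1.64 in vincristine and 36.4% ± 0.253 in vehicle, Hoxb 23.3% ± 2.68 and 24.3% ± 1.53, Hoxc 21.1% ± 2.58 and 18.8% ± 1.5, and Hoxd 22.1% ± 3.61 and 20.5% ± 2.91. The Hoxa share was 31.7%, 34.5% and 34.6% in vincristine replicates 1, 2 and 3, each below the 36.1%, 36.4% and 36.6% of the vehicle replicates. The Hoxd share was 18%, 23.5% and 24.8% in vincristine and 18%, 23.7% and 19.7% in vehicle. Its low values were those of replicate 1 in each group, which also had the lowest neuron marker sum of their group. Whether the makeup of cells plays a part in these shares was not tested, and in whole ganglia fewer cells of a type and less RNA per cell cannot be told apart.

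**Figure D2:**
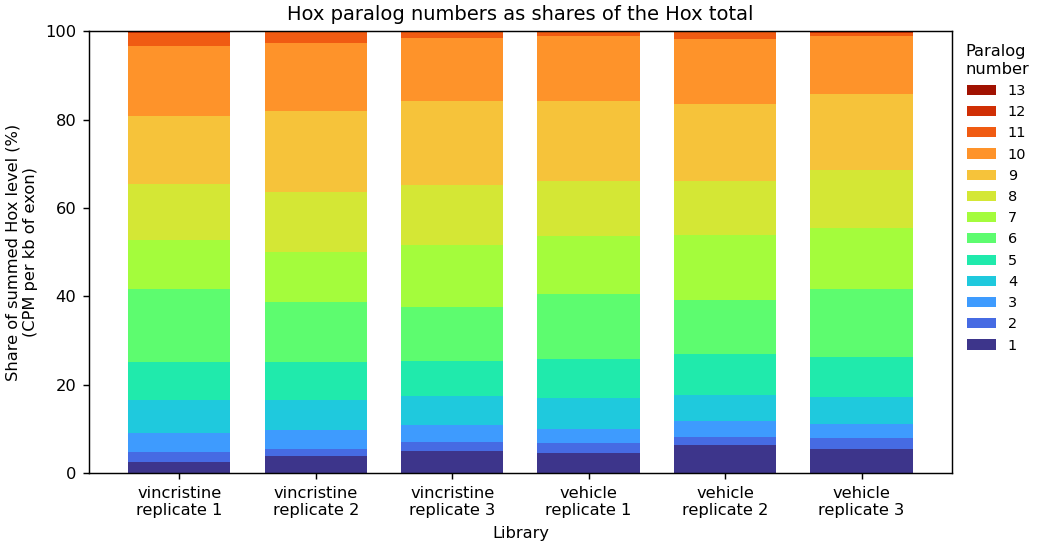
Share of the summed Hox level (percent of CPM per kb of exon) held by each paralog number in each of the 6 libraries, vincristine left of vehicle. Paralog numbers 5 to 9 fill between 64.1% and 68.4% of every bar, and number 11 is the thin band near the top, widest in vincristine replicate 1 (2.93%).

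After vincristine no Hox gene passed the test. Of the 38 genes 30 had enough reads to be tested, and 0 of them had an adjusted p under 0.05 by edgeR's quasi-likelihood test with Benjamini-Hochberg adjustment over 16706 genes, where 0.359% of all tested genes did (0.293% higher and 0.0658% lower in vincristine). The smallest adjusted p among them was 0.283, for Hoxa4. DESeq2 also called 0 of the 32 Hox genes to which it gave an adjusted p (smallest 0.159, for Hoxc11), against 2.81% of all genes. At an unadjusted edgeR p under 0.05 there were 4 of 30 (13.3%), close to the 11.4% of all tested genes. All 4 were lower in vincristine, whereas 3.27% of all tested genes met that mark on the lower side and 8.10% on the higher side. DESeq2 put 5 at an unadjusted p under 0.05, the same 4 and Hoxc11.

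Fold changes were small and went both ways. Of the 30 tested genes 16 had a positive and 14 a negative log2 fold change, where 50.7% of all tested genes had a negative one, with a median of 0.01 beside -0.003 for all tested genes, and a median size of 0.18 beside 0.17. By cluster the median log2 fold change was -0.11 in Hoxa (3 positive, 7 negative), -0.17 in Hoxb (2 and 6), 0.03 in Hoxc (6 and 0) and 0.29 in Hoxd (5 and 1). Leaving out 1 library moved these medians. The Hoxa median ranged from -0.18 without vincristine replicate 1 to -0.02 without vehicle replicate 3, and was -0.04 without vincristine replicate 3. The Hoxb median ranged from -0.35 without vincristine replicate 1 to -0.04 without vincristine replicate 3, and was -0.28 and -0.05 without vehicle replicates 2 and 3. The Hoxc median ranged from -0.08 without vincristine replicate 1 to 0.18 without vincristine replicate 3, was 0.08 without vehicle replicate 1 or 3, and was at 0 without vehicle replicate 2. The Hoxd median ranged from 0.14 without vehicle replicate 1 to 0.38 without vehicle replicate 2. For 24 of the 30 genes the 95% interval of the fold change lay within 2-fold in either direction, and for 11 within 1.5-fold. The narrowest interval was that of Hoxa10 (-0.47 to 0.11 on the log2 scale) and the widest that of Hoxd11 (-0.10 to 1.93). The other 5 whose intervals reached past 2-fold were Hoxa4, Hoxa11, Hoxb8, Hoxd1 and Hoxd10.

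**Figure D3:**
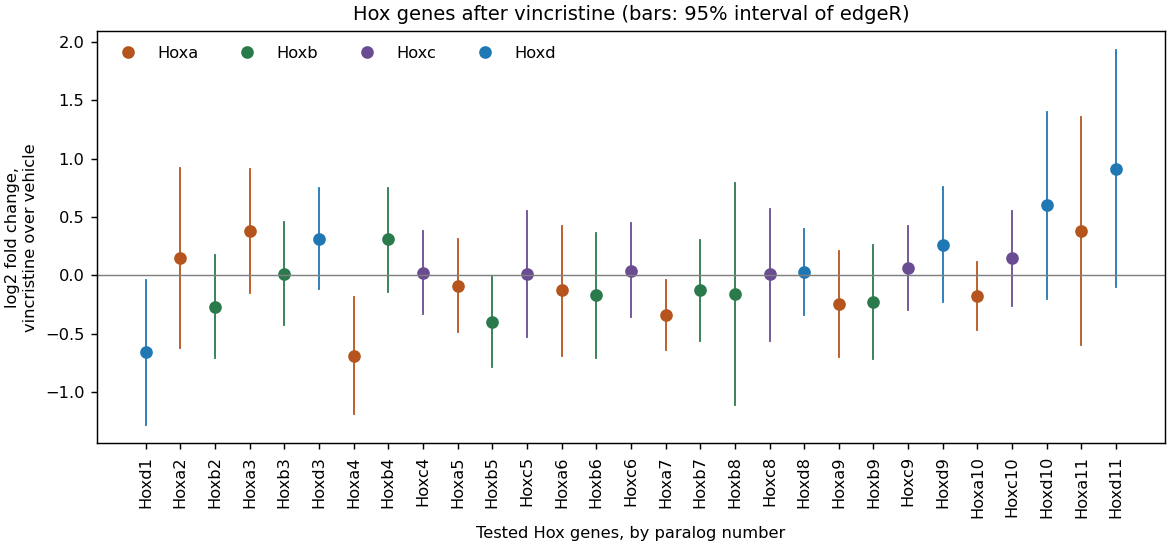
log2 fold change of vincristine over vehicle for tested Hox genes, ordered by paralog number and coloured by cluster; points are edgeR estimates, bars their 95% intervals, and the grey line is no change. Most points lie within 0.5 of the line, Hoxa4 (-0.69) and Hoxd1 (-0.66) are lowest, and Hoxd10 (0.60) and Hoxd11 (0.91) are highest with wide bars.

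Among the genes of low paralog number, Hoxd1 was the exception to the general low level. Hoxd1 is known in the mouse for its role in the development of nociceptive sensory neurons. At 5.85 ± 1.08 CPM per kb in vehicle it had rank 5 among the Hox genes, in an order not resolved from its neighbours. By longest coding length it had rank 10. Hoxb1, a hindbrain gene, was at 0.0147 ± 0.0127 CPM per kb. Hoxd1 had 4.41, 7.57 and 8.48 CPM in vincristine replicates 1, 2 and 3, against 8.63, 12.5 and 11.6 CPM in vehicle replicates 1, 2 and 3. Every vincristine value lay below every vehicle value, though vincristine replicate 3 only just. Its log2 fold change was -0.66 ± 0.26 (SE; edgeR adjusted p = 0.409). In 5 of the 30 tested Hox genes (16.7%) all vincristine libraries lay below all vehicle libraries, as in 9.51% of all tested genes. In 0 of 30 they lay above, as in 11.5% of all tested genes. The libraries with the lowest Hoxd1 were also those with the lowest neuron marker sums in each group, 3280 CPM in vincristine replicate 1 and 6930 CPM in vehicle replicate 1. Hoxa7, Hoxa9, Hoxb5, Hoxd8 and Hoxd9 were lowest in these same libraries of each group, so this was not particular to Hoxd1. Across groups the order differed: vincristine replicate 3 had a neuron sum of 8600 CPM, above that of vehicle replicate 1, but a lower Hoxd1 (8.48 against 8.63 CPM). The part of neuronal content in the Hoxd1 values was not tested, and without vincristine replicate 1 the log2 fold change was -0.44 ± 0.18 (edgeR adjusted p = 0.368).

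**Figure D4:**
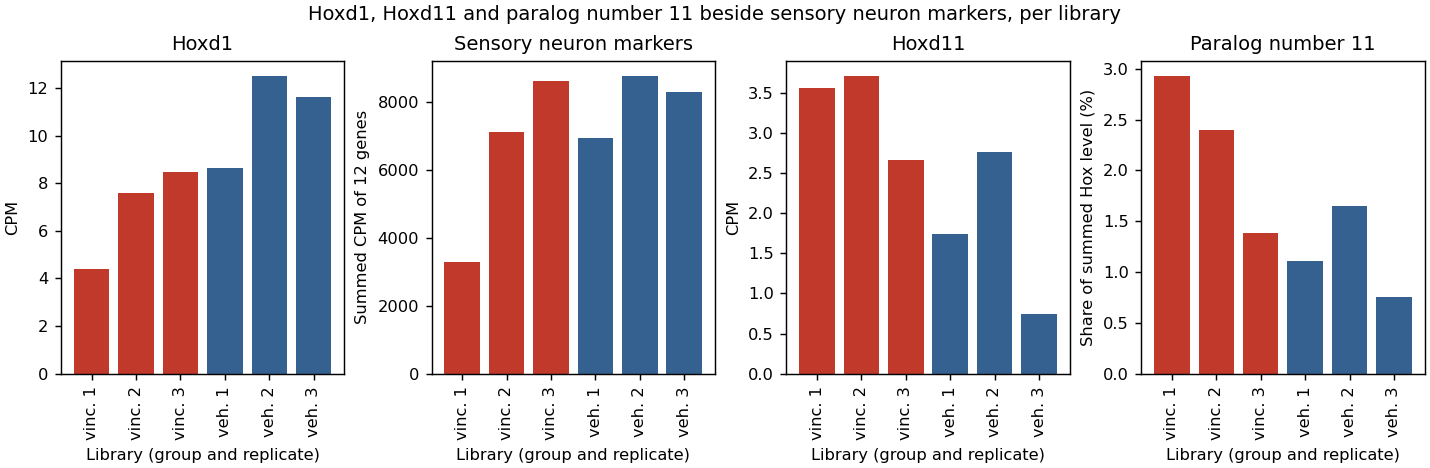
Hoxd1 (CPM), the sum of 12 sensory neuron markers (CPM), Hoxd11 (CPM) and the share of paralog number 11 in the summed Hox level (percent) in each library; each bar is 1 library of 4 pooled animals, vincristine red and left, vehicle blue and right. Hoxd1 and the neuron markers are both lowest in vincristine replicate 1 (4.41 and 3280 CPM), and Hoxd11 and the number 11 share are both lowest in vehicle replicate 3 (0.750 CPM and 0.756%).

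The genes of paralog numbers 2 to 4 had vehicle levels between 0.627 and 3.07 CPM per kb. Hoxa4, a gene of the cervical region in the embryo, had 1.32, 1.20 and 1.23 CPM in vincristine and 2.02, 2.03 and 2 CPM in vehicle. The groups were well apart and tight, yet each value rests on 17 to 40 reads, so the small spread is no measure of precision. Hoxa4 had a log2 fold change of -0.69 ± 0.21 (unadjusted p = 0.0130, edgeR adjusted p = 0.283). It was -0.45 when all libraries were thinned to the size of the smallest. Its paralogs Hoxb4 and Hoxc4 had log2 fold changes of 0.31 ± 0.19 and 0.02 ± 0.15, neither of which passed the test. The 3 genes of paralog number 3, known for their roles in the pharyngeal arches and neck, had positive values: Hoxa3 0.38 ± 0.23, Hoxb3 0.01 ± 0.19 and Hoxd3 0.31 ± 0.19, with edgeR adjusted p-values of 0.578 or more. Only 47.1% of the exonic bases of Hoxb3 and 37.2% of those of Hoxd3 belong to no other gene, so the counts of both are less certain.

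Paralog numbers 5 to 8 held the genes of the trunk. Hoxa7, a gene of thoracic patterning, had 20.2, 25.1 and 26.5 CPM in vincristine and 28.6, 31.3 and 31.1 CPM in vehicle. All vincristine values were lower, with a log2 fold change of -0.34 ± 0.13 (unadjusted p = 0.0324, edgeR adjusted p = 0.382). Hoxd8 had 21.8, 31.0 and 27.4 CPM in vincristine against 23.1, 27.1 and 28.4 CPM in vehicle. These overlapped throughout (log2 0.03 ± 0.16). Hoxd8 had the highest mean level per kb of all Hox genes in vincristine, while Hoxa7 had it in vehicle. The libraries of Hoxd8, Hoxa10 and Hoxa7 overlapped per kb in both groups, so the order of these genes is not resolved in either. Hoxb5 had 6.97, 7.73 and 7.59 CPM in vincristine and 8.07, 11.3 and 10.0 CPM in vehicle. Its groups did not overlap, by a narrow margin at vehicle replicate 1 (log2 -0.40 ± 0.17, unadjusted p = 0.0472, edgeR adjusted p = 0.430). Both Hoxa7 and Hoxb5 overlap a gene on the opposite strand (Hoxaas3 and Hoxb5os), and whether the counting used strand is not known from the labels.

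Hoxc6, which in the embryo helps to specify motor neuron pools at forelimb level, was the highest gene of its cluster. It had 16.7, 14.5 and 11.1 CPM in vincristine and 13.3, 12.7 and 14.8 CPM in vehicle (log2 0.04 ± 0.17), with the vincristine values on both sides of the vehicle range. Hoxb6 had 10.9, 8.41 and 6.47 CPM in vincristine and 9.92, 7.92 and 11 CPM in vehicle. Hoxb7 had 8.59, 6.42 and 6.86 CPM in vincristine and 6.72, 8.08 and 9 CPM in vehicle. Both overlapped between groups, with log2 fold changes of -0.17 ± 0.23 and -0.13 ± 0.18. Connective tissue markers, summed over 10 genes, had the same order of libraries as Hoxc6 and Hoxb6 in each group. The sums were 12800, 10800 and 7280 CPM in vincristine and 10400, 7860 and 11900 CPM in vehicle. The spinal cord sums and the bone and cartilage sums had that order too, so it was not particular to connective tissue. Among the Hox genes it was also the order of Hoxa6, Hoxb8, Hoxc4, Hoxc5 and Hoxc10, so it was not particular to Hoxc6 and Hoxb6. The part of these lists in the Hoxc6 and Hoxb6 values was not tested. Hoxb8, known for a role in the microglial lineage and in spinal sensory circuits, had the highest coefficient of variation of the tested Hox genes in vincristine (59.1%), with 7.66 CPM in replicate 1 and 3.08 and 2.93 CPM in replicates 2 and 3, against 4.82, 3.96 and 6.15 CPM in vehicle. The vincristine values lay on both sides of the vehicle range (log2 -0.16 ± 0.40), and without vincristine replicate 1 the log2 fold change was -0.73 (edgeR adjusted p = 0.217). The remaining 4 genes of these numbers, Hoxa5, Hoxa6, Hoxc5 and Hoxc8, had log2 fold changes between -0.13 and 0.01, and vehicle levels between 2.33 and 5.36 CPM per kb.

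**Figure D5:**
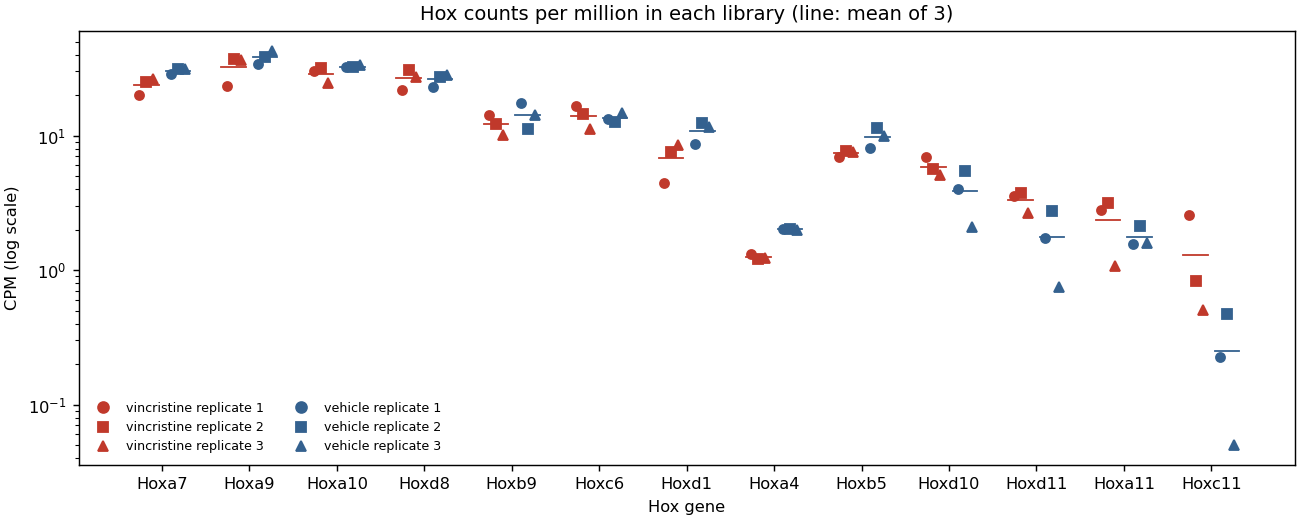
CPM (log scale) of 13 Hox genes in each library; vincristine (red) is left of vehicle (blue) for each gene, marker shapes give the replicate number and lines the mean of 3 libraries. Hoxa4 is 1.20 to 1.32 in vincristine against 2 to 2.03 in vehicle, and Hoxd10, Hoxd11 and Hoxc11 have their lowest vehicle point at replicate 3 (2.10, 0.750 and 0.05 CPM).

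All 4 clusters carry a gene of paralog number 9, a number known for setting the thoracic to lumbar range. Hoxa9 had 23.2, 37.4 and 36.4 CPM in vincristine and 34.2, 38.7 and 42.6 CPM in vehicle, low only in vincristine replicate 1 (log2 -0.25 ± 0.19). Hoxb9 had 14.3, 12.3 and 10.1 CPM in vincristine and 17.6, 11.2 and 14.2 CPM in vehicle, and the groups overlapped (log2 -0.23 ± 0.21). Hoxc9, which sets thoracic motor neuron identity in the embryo, was the steadiest of them at 9.45, 9.29 and 7.44 CPM in vincristine and 8.91, 8.02 and 8.05 CPM in vehicle (log2 0.06 ± 0.15). Hoxd9 had 8.13, 11.4 and 10.3 CPM in vincristine and 6.33, 9.95 and 8.60 CPM in vehicle, with overlap (log2 0.26 ± 0.21). None of the 4 passed, with edgeR adjusted p-values of 0.672 or more.

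Paralog number 10, the lumbar number, was expressed from the 3 clusters that carry it, at unequal levels. In vehicle Hoxa10 was at 9.96, Hoxc10 at 3.93 and Hoxd10 at 2.13 CPM per kb. Of these only Hoxa10 lay above the median of tested genes, 5.21 CPM per kb. Hoxa10 had 30.3, 31.8 and 24.4 CPM in vincristine and 32.2, 32.3 and 33.3 CPM in vehicle. All vincristine values were below the vehicle values, but replicate 2 by little, and the log2 fold change was -0.18 ± 0.12 (edgeR adjusted p = 0.632). Hoxc10, a gene of lumbar motor neurons and hindlimb in the embryo, had 9.29, 8.41 and 7.32 CPM in vincristine and 7.67, 6.36 and 8.50 CPM in vehicle, with overlap (log2 0.15 ± 0.17). Hoxd10 had 6.97, 5.64 and 5.05 CPM in vincristine and 4.03, 5.47 and 2.10 CPM in vehicle. Only vehicle replicate 2 reached into the vincristine range, and vehicle replicate 3 had the lowest value. The log2 fold change of Hoxd10 was 0.60 ± 0.34 (edgeR adjusted p = 0.564), with 0.30 without vehicle replicate 3 and 0.96 without vehicle replicate 2.

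In paralog number 11, Hoxd11 had the largest positive fold change of all tested Hox genes, in low counts. Hoxd11, which acts in limb and kidney development, had 46, 71 and 69 reads in vincristine and 31, 53 and 15 reads in vehicle, or 3.56, 3.71 and 2.66 CPM against 1.74, 2.76 and 0.750 CPM. Vehicle replicate 2 lay just above vincristine replicate 3, and all others were apart. Its log2 fold change was 0.91 ± 0.43 (edgeR adjusted p = 0.489), and 0.54 without vehicle replicate 3 and 1.43 without vehicle replicate 2. Hoxa11, its partner in the limb, had 2.79, 3.18 and 1.08 CPM in vincristine and 1.57, 2.14 and 1.60 CPM in vehicle, with the lowest value of all in vincristine replicate 3 (log2 0.38 ± 0.42, edgeR adjusted p = 0.762). With replicate 1, 2 or 3 of vincristine left out, the log2 fold change of Hoxa11 was 0.23, 0.07 and 0.75. Exons of Hoxa11 overlap those of Hoxa11os on the opposite strand, which had 10, 11 and 3 reads in vincristine and 4, 10 and 7 in vehicle.

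Hoxc11, named because its groups did not overlap, was removed by the filter on low counts. It had 33, 16 and 13 reads in vincristine and 4, 9 and 1 in vehicle, or 2.55, 0.835 and 0.501 CPM against 0.224, 0.469 and 0.05 CPM. All vincristine values were higher, vincristine replicate 3 and vehicle replicate 2 being close. Among all tested genes 11.5% lay higher without overlap, a share that leaves out genes removed by the filter, such as Hoxc11. DESeq2 gave a log2 fold change of 2.35 with an adjusted p of 0.159, and edgeR without the filter 2.26 ± 0.81 with an adjusted p of 0.434, so the difference did not pass by either. It was 1.78 without vehicle replicate 3 and 3.15 without vehicle replicate 2 by edgeR, which then kept the gene, with adjusted p-values of 0.666 and 0.705. Vincristine replicate 1 had the highest Hoxc11 value and the highest sum of spinal cord markers (346 CPM). Hotair, the long non-coding RNA beside Hoxc11, had 12, 3 and 1 reads in vincristine and 3, 2 and 5 in vehicle. In vehicle the order was the reverse: Hoxc11 was highest in replicate 2, where Hotair and the spinal cord sum (66.4 CPM) were lowest. The connective tissue, bone and cartilage, endothelium, neutrophil and red cell sums were also highest in vincristine replicate 1. The neuron, satellite glia, Schwann cell, muscle and B cell sums were not. The part of these in the Hoxc11 values was not tested.

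Ratios within the Hoxd cluster describe the step from number 9 to 11 in each library. Hoxd11 was at 22.2%, 16.5% and 13.1% of the Hoxd9 level per kb in vincristine replicates 1, 2 and 3, and at 13.9%, 14.1% and 4.42% in vehicle replicates 1, 2 and 3. Hoxd10 was at 101%, 58.3% and 57.7% of Hoxd9 in vincristine and at 74.9%, 64.7% and 28.7% in vehicle. Both ratios were lowest in vehicle replicate 3 and highest in vincristine replicate 1, and the ranges of the groups overlapped. Hoxd8 was at 209%, 212% and 208% of Hoxd9 in vincristine and at 284%, 212% and 258% in vehicle. The coefficient of variation of Hoxd11 was 17.2% over the vincristine and 57.5% over the vehicle libraries, and that of Hoxd10 16.7% and 43.7%. The median over the 30 tested Hox genes was 17.2% in vincristine and 14.4% in vehicle. The large vehicle spread of both genes went with vehicle replicate 3, which had 15 reads of Hoxd11 and 42 of Hoxd10.

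Beyond number 11 hardly any reads were found. Hoxd12 had no read in the 6 libraries, and 3 reads over their total would be 0.0260 CPM. Hoxd13 had 0 reads in vincristine and 1 in vehicle, Hoxa13 7 and 1, Hoxb13 5 and 2, and Hoxc13 6 and 3. Hoxc12 had 12 reads in vincristine and 8 in vehicle. Genes of number 13 act in digits, hindgut and genitals, with Hoxc13 in hair and nails. Hoxb1 had 3 reads in vincristine and 2 in vehicle. Differences in these genes were not detectable at this depth.

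Partners of the Hox proteins were present, and none passed the test. All 9 genes of the Pbx, Meis and Pknox cofactor list were tested, and 0 passed by edgeR or DESeq2, with a median log2 fold change of -0.07. At an unadjusted p under 0.05 there was 1 of 9, where 11.4% of all tested genes were. Meis2 had 8.98, 10.4 and 11.1 CPM in vincristine and 12.4, 12.8 and 16.2 CPM in vehicle, without overlap, as in 9.51% of all tested genes on the lower side (log2 -0.44 ± 0.16, edgeR adjusted p = 0.365). Pknox1 had 25.7, 23.2 and 25.3 CPM in vincristine and 22.1, 18.7 and 21.8 CPM in vehicle, also without overlap, as in 11.5% of all tested genes on the higher side (log2 0.25 ± 0.11, edgeR adjusted p = 0.477).

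None of the tested regulators of the clusters passed either. Of 23 listed genes 22 were in the tables and 18 were tested, with 0 called by edgeR or DESeq2 and a median log2 fold change of 0.07. At an unadjusted p under 0.05 there were 2 of 18, again beside 11.4% of all tested genes. Rara, a retinoic acid receptor, had 27.2, 23.5 and 18.8 CPM in vincristine and 17.8, 14.3 and 18.1 CPM in vehicle, without overlap, where 11.5% of all tested genes lay higher without overlap (log2 0.47 ± 0.17, edgeR adjusted p = 0.370). Wdr5, a core part of complexes that methylate histone H3 at active genes, had 32.6, 29.3 and 30.4 CPM in vincristine and 25.8, 23.2 and 27.3 CPM in vehicle (log2 0.27 ± 0.11, edgeR adjusted p = 0.404). The Polycomb genes Ezh2, Eed and Suz12 had log2 fold changes of 0.25 ± 0.27, 0.14 ± 0.16 and -0.06 ± 0.10. Cdx1, Cdx2 and Cdx4, which start the caudal Hox genes in the embryo, had no read in any library. Among the non-coding genes of the clusters only Hoxb3os, an antisense gene over Hoxb2 and Hoxb3, had enough reads, with a log2 fold change of 0.22 ± 0.28. Genes next to the clusters, 15 tested of 18 listed, had 0 calls and a median of -0.03.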

How the data were processed

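The authors deposited 1 table of raw counts for each sample, with a gene symbol on each line, made with STAR, SAMtools and HTSeq on mm10 (GRCm38), per the submitters' processing notes. No label names versions, the annotation or the strand setting. Libraries were stranded total RNA, per the labels' protocols. The labels' 40 µg is used, though the tables' own names give a smaller dose. Summary lines of the counter (0.253% to 0.331% ambiguous, 14.8% to 24.8% outside genes and 31.1% to 40.5% not unique, of all tallied alignments) were left out. Reads shared by genes of 1 strand are as a rule not counted, which touches the 8 Hox genes with such exons.

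Counts were tested with edgeR 4.0.16 (R 4.3.3): filterByExpr with a minimum count of 10, TMM scaling, robust glmQLFit and glmQLFTest, two-sided, on treatment group alone with 4 residual degrees of freedom, Benjamini-Hochberg adjustment over 16706 genes and a threshold of 0.05. The SE is the log2 fold change over the square root of F, and 95% intervals use the fit's t quantile. Lengths and positions come from GENCODE M21. DESeq2 1.42.0 and limma 3.58.1 served as alternatives; the edgeR, DESeq2 and limma steps were tested on simulated data. Replicate libraries differed by far more than counting error, so none was a copy.

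Members and lists were chosen with earlier results of these data known. Library values are given for the 3 highest genes of each cluster, those at an unadjusted p under 0.05, the tested genes of paralog numbers 9 to 13, and the 3 largest fold changes each way. Hoxb8, Hoxc11 and the fold changes of paralog numbers 3 and 4 were added after their values were seen. From the lists of cofactors, regulators and non-coding genes the 2 with the smallest p were named; the Polycomb genes, the Cdx genes and Hotair were added after the values were seen. Some values are not reported here.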

Additional observations from a re-analysis of the deposited data

How the results depend on the processing

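The count of Hox genes called was 0 by DESeq2, limma-voom, other scaling factors, other filters and thinned counts, at a threshold of 0.1, and with any 1 library removed (0 to 0). It was 1, Hoxd11 (log2 0.93, edgeR adjusted p = 0.0408), only when libraries were scaled by their summed Hox counts and vincristine replicate 1 was left out, a setting chosen after seeing the data that called 1020 of all genes; other settings gave Hoxd11 adjusted p-values of 0.202 or more. The median Hox log2 fold change stayed between -0.12 and 0.09, the first without vincristine replicate 1 and the last without vincristine replicate 3. Over all genes edgeR called 60. The count was 551 by DESeq2, 99 with no filter, 125 at a threshold of 0.1, 476 when limma-voom weighted the libraries by quality (a choice also made after seeing the data), and 0 to 346 with a library left out, 346 being without vincristine replicate 1 and 0 without any 1 vehicle library, where 1063 to 1462 genes were at an unadjusted p under 0.05.

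With the replicate number as a block, 261 genes and 0 Hox genes were called. Deviations of same-numbered samples correlated at 0.43, 0.25 and -0.094 for numbers 1, 2 and 3, and other pairs ranged from -0.49 to 0.49. The labels do not say whether equal numbers share a batch, and correlations among 3 samples a group cannot decide it. Vincristine replicates 1 and 2 correlated best with the vehicle sample of their number, and vincristine replicate 3 with vehicle replicate 2.

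Shares of the summed Hox level depend on the length used. By longest coding length Hoxa held 37.1% in vincristine and 40.4% in vehicle, Hoxd 18.3% and 16.5%, paralog numbers 1 to 4 15.9% and 15.2%, 5 to 9 70.9% and 73.2%, and 10 to 13 13.2% and 11.6%, and Hoxa9 ranked first in vehicle. By exonic bases that no other gene covers, Hoxa held 36.9% in vehicle, numbers 1 to 4 20.4% in both groups and 5 to 9 62.2% in vincristine and 64.4% in vehicle. Depth limits most the genes of paralog numbers 11 to 13, whose 9 members together had 57 to 159 reads per library.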
